A study of Drosophila melanogaster with 8 samples.

Results

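The V-ATPase and autophagy genes were examined in dissected intestines of adult female Drosophila melanogaster that had been fed the amino sugar N-acetyl-D-glucosamine (GlcNAc). They were chosen by gene symbol, as every gene of the expression table whose symbol starts with Vha (a V-ATPase subunit or accessory protein) or with Atg and a number (a core autophagy gene). This gave 38 of 7671 genes, of which 20 are V-ATPase genes and 18 are Atg genes. All 38 had passed the authors' filter on low values before the table was made. The fly annotation names another 14 V-ATPase genes and 2 Atg genes, which were not analysed here.

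The study placed mated females, 7 days old, for 24 hours on food diluted to 0.25 of its normal strength (calorie restriction) that held 0.1 M GlcNAc or none for the controls. GlcNAc enters the hexosamine biosynthesis pathway (HBP), which makes the sugar donor for protein glycosylation. Each condition had 4 independent samples with 1 RNA sequencing library each, prepared with a stranded kit and sequenced as single-end reads. All flies of both conditions carried the same clone-marking background, with UAS-mCD8::GFP and hsFLP, tub-GAL4 over a wild-type chromosome, and FRT82B tub-GAL80 over a plain FRT82B chromosome. In this background tub-GAL4 can drive the GFP only in cells that have lost tub-GAL80, and the RNA came from the whole organ and not from marked cells. The labels call the source whole larvae and the treatment glucosamine, whereas their tissue field, their titles and the study's methods give intestine, GLUCNAC and adult females on GlcNAc, which are used here. How many intestines went into a sample is not given in the sources used here.

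The V-ATPase is a rotary proton pump of endomembranes and of the apical membrane of some epithelia. Its cytosolic V1 sector hydrolyses ATP, and its membrane-embedded V0 sector carries the protons. It acidifies lysosomes, endosomes and secretory vesicles, and in the acid-producing copper cell region of the fly midgut it acidifies the lumen. Autophagy is the delivery of cytoplasm to the lysosome in double-membraned vesicles, the autophagosomes. The Atg1 kinase complex starts it, a lipid kinase complex with Atg6 and Atg14 marks the membrane, Atg9, Atg2 and the Atg18 proteins supply lipid, and a ubiquitin-like conjugation system attaches Atg8a to the growing membrane. Both processes meet at the lysosome, whose acidity is needed to digest what autophagy delivers, and both are tied to nutrient sensing by the TOR kinase.

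Over all 7671 genes of the table, the libraries held between 8839877 and 9838415 reads in control and between 9281492 and 10326189 in GlcNAc. Levels are given as CPM, the reads of a gene per 1000000 reads of its library after the authors' scaling. Of 10 marker genes of the intestine, 7 were measured, GATAe, nub, Myo31DF, cad, esg, alphaTry and Jon99Ciii, and their sum ran from 21125 to 25501 CPM in control and from 19221 to 21160.2 CPM in GlcNAc. Most of this sum was alphaTry, with means of 21651 CPM in control and 19115 CPM in GlcNAc, so it says little about the other markers. Replicate 2 stood apart for the V-ATPase in both conditions. Control replicate 2 was the highest control library for 16 of the 20 V-ATPase genes, and GlcNAc replicate 2 was the highest GlcNAc library for 16 of the 20. The same libraries were highest in the summed markers of ovary, fat body and Malpighian tubules, of which few were measured. They were also highest in those of copper cells and of the hormone-producing enteroendocrine cells. For visceral muscle this held in GlcNAc but not in control, and for neurons in neither condition. The yolk genes Yp1 and Yp3, the only 2 of 13 ovary markers analysed, summed to 534 CPM in control replicate 2 and to 267 CPM in GlcNAc replicate 2, within ranges of 21.5 to 534 and 79.3 to 267 CPM. Apolpp, a fat body lipoprotein gene and the only 1 of 6 fat body markers analysed, had 117 and 66.7 CPM in those libraries, within ranges of 2.03 to 117 and 18.4 to 66.7 CPM. The Malpighian tubules, the renal organs joined to the gut, are rich in V-ATPase. Of their 17 markers 9 were measured, with sums of 604 to 782 CPM in control and 492 to 677 CPM in GlcNAc, again highest in replicate 2 of each condition. Their defining markers Uro, CapaR and Irk3 are not among the genes analysed. Because of this, counts are also given without replicate 2 of both conditions, a comparison added after the data had been seen.

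Most V-ATPase genes had lower levels on GlcNAc. All but Vha68-1 of the 20 had a log2 fold change below 0, with a median of -0.29, where 47.2% of all 7671 genes were below 0 and the median of all genes was 0.01. With an adjusted p under 0.05 by limma, Benjamini-Hochberg adjusted over all genes, 12 of the 20 fell and 0 rose, where 6.60% of all genes fell and 15.3% changed in either direction. At an unadjusted p under 0.05 by limma 14 were lower and 0 were higher, and limma's voom called 12 lower and 0 higher after adjustment. Among the 1540 genes with a mean of at least 100 CPM, a level that most V-ATPase genes exceed, 15.0% fell. For 14 of the 20 the GlcNAc libraries all lay below the lowest control library, where this was so for 9.24% of all genes. The number that fell was 7 when GlcNAc replicate 1 or GlcNAc replicate 4 was left out, and 11 without replicate 2 of both conditions. Of all genes 402, 360 and 416 fell in these settings, against 506 with all libraries. When each library was scaled only by its total, 11 fell. In that setting 408 of all genes fell and 866 rose, or 32.0% falling among the calls, against 506 and 671, or 43.0%, with the authors' scaling. The genes were chosen by name with earlier results of these data known, so these counts describe them and are no test of the group.

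Summed over the 20 genes, the V-ATPase had 21839, 24400, 20653 and 22020 CPM in control replicates 1 to 4. In GlcNAc replicates 1 to 4 it had 16971, 19888, 17309 and 17877 CPM. The highest GlcNAc library, replicate 2, lay below the lowest control library, replicate 3. The mean was 2.22 ± 0.157% in control and 1.80 ± 0.131% in GlcNAc (SD, n = 4). In RNA from a whole organ, fewer cells with much V-ATPase and less V-ATPase RNA per cell cannot be told apart.

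**Figure D1:**
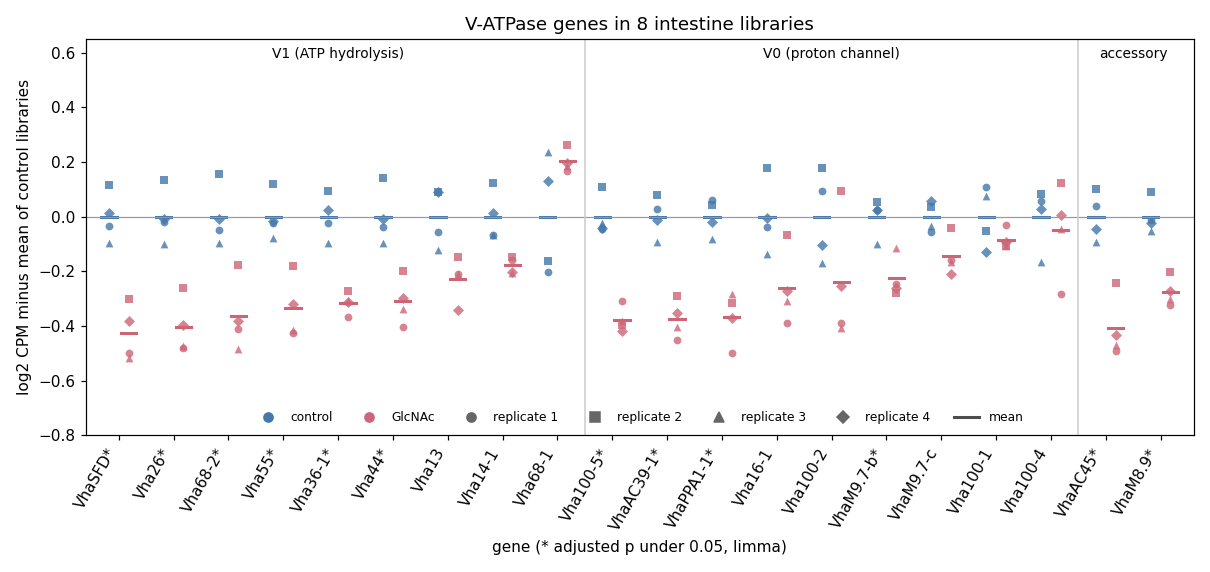
The 20 V-ATPase genes in each of the 8 libraries, as log2 CPM minus the mean of the 4 control libraries of that gene. Blue points are control and red points GlcNAc libraries, the marker shape gives the replicate, bars are means, and an asterisk marks the 12 genes with an adjusted p under 0.05. The red bars lie below 0 for all genes but Vha68-1, and the squares of replicate 2 lie highest in both colours for most genes.

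In the V1 sector, 6 of the 9 genes fell, with a median log2 fold change of -0.32. VhaSFD, for the regulatory H subunit, spans 16722883 to 16727826 on the minus strand of chromosome 2L in the BDGP6 assembly. It had 710.4, 788, 679 and 735 CPM in control replicates 1 to 4 and 515, 589.9, 508 and 557 CPM in GlcNAc replicates 1 to 4. The conditions did not overlap, and the mean of VhaSFD was 728 ± 46.1 CPM against 542 ± 38.5 CPM (SD, n = 4). It fell by 0.43 on the log2 scale (standard error, SE, of 0.07 and adjusted p = 0.00381 by limma), the lowest of the 20.

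The catalytic head of V1 is built from the A subunit, which binds and hydrolyses ATP, and the B subunit. Vha68-2, for the A subunit, had 3433, 3963, 3322 and 3528 CPM in control and 2673, 3142, 2543 and 2724 CPM in GlcNAc, each in the order of replicates 1 to 4. Vha55, for the B subunit, had 1989.7, 2195, 1915 and 1998 CPM in control and 1505, 1786, 1515 and 1621 CPM in GlcNAc. In both genes GlcNAc replicate 2 came closest to the controls without reaching them. Vha68-2 fell by 0.36 on the log2 scale (SE 0.10, adjusted p = 0.0366 by limma) and Vha55 had a log2 fold change of -0.33 ± 0.09 (SE, adjusted p = 0.0251). Both calls were lost when single libraries were left out, with an adjusted p of up to 0.0988 for Vha68-2 and up to 0.0789 for Vha55, and both held without replicate 2 of both conditions.

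The stalks of V1 link the head to the membrane. Vha26, for the E subunit of the peripheral stalks, had 608, 676, 575 and 613 CPM in control and 442, 515, 444 and 469 CPM in GlcNAc. Vha44, for the C subunit, which clamps V1 to V0, had 926, 1049, 888 and 945 CPM in control and 718, 829, 751 and 773 CPM in GlcNAc. Vha36-1, for the D subunit of the rotor, had 968, 1049, 921 and 1001 CPM in control and 762, 814, 794 and 791 CPM in GlcNAc. None of these overlapped between the conditions. The log2 fold changes were -0.40 for Vha26 (adjusted p = 0.0052 by limma), -0.31 for Vha44 (adjusted p = 0.0205) and -0.32 for Vha36-1 (adjusted p = 0.00925), with standard errors of 0.07, 0.08 and 0.07. The call of Vha44 was lost without control replicate 4 or without GlcNAc replicate 1, 3 or 4, with an adjusted p of up to 0.0637.

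For the small V1 subunits F and G the test was not passed. Vha14-1, for subunit F, had 397, 453, 398 and 419.9 CPM in control and 373, 376, 361 and 362 CPM in GlcNAc. Vha13, for subunit G, had 375, 416, 358 and 415 CPM in control and 337, 352, 337 and 308 CPM in GlcNAc. In both genes the GlcNAc libraries were all below the controls. Vha14-1 had a log2 fold change of -0.18 (95% interval -0.31 to -0.04, adjusted p = 0.0791 by limma) and Vha13 of -0.23 (-0.39 to -0.07, adjusted p = 0.0563). With quantile normalization both passed, at 0.00706 and 0.0134.

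In the V0 sector, 4 of the 9 genes fell, with a median log2 fold change of -0.24. Vha16-1 encodes the proteolipid subunit c that forms the proton-carrying rotor ring. It had 6504, 7559, 6077 and 6648 CPM in control and 5091, 6367, 5385 and 5521 CPM in GlcNAc. GlcNAc replicate 2 lay above control replicate 3, so the conditions overlapped. The mean was 6697 ± 624 CPM in control and 5591 ± 547 CPM in GlcNAc (SD, n = 4), for a log2 fold change of -0.26 (95% interval -0.53 to 0.01, adjusted p = 0.197 by limma). Without replicate 2 of both conditions the adjusted p was 0.183.

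VhaPPA1-1 encodes the related proteolipid c″ of the same ring. It had 451, 444, 408 and 426 CPM in control and 306, 347, 355 and 334 CPM in GlcNAc, and the log2 fold change was -0.37 ± 0.07 (SE, adjusted p = 0.00451 by limma). VhaAC39-1 encodes subunit d, which couples the ring to the V1 rotor. It had 1125, 1168, 1035 and 1095 CPM in control and 808, 903, 835 and 865 CPM in GlcNAc, and the log2 fold change was -0.37 ± 0.07 (SE, adjusted p = 0.00503). Both fell without overlap between the conditions.

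Subunit e is a small membrane protein with 2 genes in the table. VhaM9.7-b had 188, 191, 172 and 188 CPM in control and 155, 152, 170.2 and 154 CPM in GlcNAc, with GlcNAc replicate 3 just below the lowest control. Its log2 fold change was -0.23 ± 0.06 (SE, adjusted p = 0.0305 by limma), and the call was lost in most settings that left a library out, with an adjusted p of up to 0.0867, and without replicate 2 of both conditions, at 0.121. VhaM9.7-c had 27.8, 29.6, 28.1 and 30.0 CPM in control and 25.9, 28.0, 25.7 and 24.9 CPM in GlcNAc. These overlapped, with a log2 fold change of -0.14 (95% interval -0.30 to 0.01, adjusted p = 0.208).

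Subunit a forms the half-channels through which protons enter and leave the ring, and its paralogs are known to send the pump to different membranes. Its 4 genes in the table differed in their calls. Vha100-5, on chromosome 2L from 11738948 to 11744524 of BDGP6, had 1265, 1407, 1285 and 1269 CPM in control and 1054, 990.1, 1001 and 976 CPM in GlcNAc. It fell without overlap, at a log2 fold change of -0.38 ± 0.07 (SE, adjusted p = 0.00463 by limma).

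The other paralogs of subunit a overlapped between the conditions. Vha100-2 had 869.6, 922, 724 and 759 CPM in control and 623, 869, 614 and 683 CPM in GlcNAc. Vha100-4 had 528, 536, 452 and 517 CPM in control and 417, 552, 491 and 509.7 CPM in GlcNAc. In both, GlcNAc replicate 2 stood highest among the GlcNAc libraries. Vha100-1 had 89.2, 79.8, 87.3 and 75.7 CPM in control and 81.1, 76.9, 76.8 and 77.6 CPM in GlcNAc. The log2 fold changes were -0.24 for Vha100-2 (95% interval -0.51 to 0.03, adjusted p = 0.238 by limma), -0.05 for Vha100-4 (-0.26 to 0.16, adjusted p = 0.79) and -0.08 for Vha100-1 (-0.23 to 0.06, adjusted p = 0.463). Without GlcNAc replicate 2, Vha100-2 passed the threshold with a log2 fold change of -0.35 (adjusted p = 0.0403), and without replicate 2 of both conditions it did not (adjusted p = 0.0678). Vha100-2 and Vha100-4 are neighbours on the minus strand of chromosome 3R, from 18390323 to 18399169 and from 18386841 to 18389805, with 517 bases between them.

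**Figure D2:**
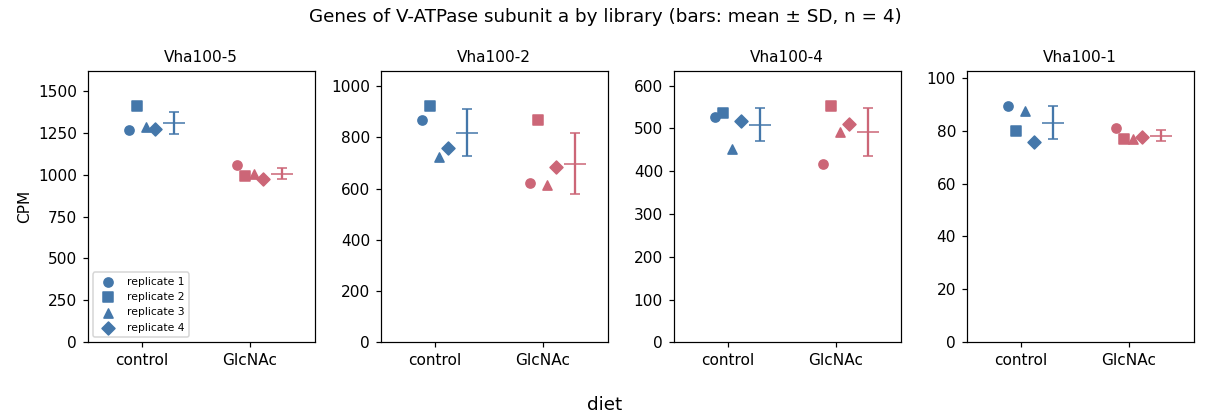
CPM of the 4 genes of V-ATPase subunit a by diet, with 1 point per library, the marker shape for the replicate and the mean ± SD (n = 4) beside the points. The 4 GlcNAc libraries of Vha100-5 lie between 976 and 1054 CPM, all below the control libraries, whereas the points of the other paralogs overlap.

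Whether paralogs of a subunit responded unequally was tested on their ratio within each library, which removes the scaling between libraries. There were 7 such ratios, each of a paralog to the member of its family with the highest mean log2 CPM, compared by a two-sided exact permutation test over 8 libraries, whose smallest p is 0.0286. The ratio of Vha100-1 to Vha100-5 was 0.0637 ± 0.00657 in control and 0.0777 ± 0.00129 in GlcNAc (SD, n = 4), higher in 4 of 4 GlcNAc libraries than in any control (exact p = 0.0286). That of Vha100-4 to Vha100-5 was 0.389 ± 0.0292 and 0.492 ± 0.0695 (SD, n = 4), higher in 3 of 4 (exact p = 0.0857). That of Vha100-2 to Vha100-5 was 0.626 ± 0.0556 and 0.696 ± 0.1301 (SD, n = 4, exact p = 0.429). Adjusted over the 7 ratios by the Benjamini-Hochberg method the exact permutation p was 0.1, 0.12 and 0.429 for subunit a. A ratio at the smallest exact p can pass 0.05 after this adjustment only if most of the 7 ratios are there too, so the adjusted values say little about whether the paralogs responded alike. Per kilobase of exon, Vha100-5 made up 49.1 ± 1.82% of the subunit a transcripts in control and 45.2 ± 3.68% in GlcNAc, and Vha100-4 made up 20.4 ± 0.972% and 23.6 ± 1.79% (SD, n = 4).

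Vha68-1, the second gene for the A subunit, lies 22162 bases from Vha68-2 on the opposite strand of chromosome 2L. It was the only V-ATPase gene with a log2 fold change above 0, and it was rare, with 68 to 102 reads per library. It had 7.45, 7.66, 10.1 and 9.37 CPM in control and 9.62, 10.3, 9.73 and 9.81 CPM in GlcNAc, which overlapped, with a log2 fold change of 0.20 (95% interval -0.07 to 0.47, adjusted p = 0.326 by limma). The ratio of Vha68-1 to Vha68-2 was 0.00245 ± 0.000493 in control and 0.00357 ± 0.000229 in GlcNAc (SD, n = 4), higher in 4 of 4 GlcNAc libraries (exact p = 0.0286, 0.1 adjusted over the 7 ratios). Per kilobase of exon, Vha68-2 gave 99.7 ± 0.0506% of the A subunit transcripts in control and 99.6 ± 0.0235% in GlcNAc (SD, n = 4). For subunit e, the ratio of VhaM9.7-c to VhaM9.7-b, 0.156 ± 0.00676 in control and 0.166 ± 0.0137 in GlcNAc (SD, n = 4), did not differ beyond its spread (exact p = 0.286). Paralogs that are near-identical in sequence can exchange reads in counting, and sequences were not compared here.

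The accessory proteins of the pump both fell. VhaAC45, for the homologue of the mammalian Ac45 protein, had 286, 298, 261 and 269 CPM in control and 198, 235, 201 and 206 CPM in GlcNAc, and the log2 fold change was -0.41 ± 0.07 (SE, adjusted p = 0.00393 by limma). VhaM8.9, the fly gene named ATP6AP2 after the mammalian (pro)renin receptor in the current annotation, had 1089, 1167, 1058 and 1080.0 CPM in control and 877, 954, 892 and 909.7 CPM in GlcNAc. Its log2 fold change was -0.27 ± 0.07 (SE, adjusted p = 0.0181). Neither overlapped between conditions, and the call of VhaM8.9 was lost without GlcNAc replicate 1 (adjusted p = 0.0572) or GlcNAc replicate 4 (0.0529). Of the genes for the RAVE-type factors that assemble V1 on V0, Rbcn-3B fell from 23.6 ± 0.98 to 19.7 ± 1.07 CPM (SD, n = 4, adjusted p = 0.0411 by limma), and Rbcn-3A had 379 ± 39.6 and 363 ± 33.6 CPM (SD, n = 4, adjusted p = 0.735).

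Per kilobase of exon the V-ATPase genes spanned a wide range. Vha16-1 led with 2177 ± 203 CPM per kilobase in control, followed by Vha68-2 with 1291 ± 102 and Vha36-1 with 925 ± 50.7 CPM per kilobase (SD, n = 4). VhaM8.9 with 748 ± 32.4 and Vha55 with 727 ± 43.0 CPM per kilobase lay close together, as did Vha14-1 with 633 ± 39.6 and VhaAC39-1 with 617 ± 31.1. The order within these pairs was not tested. At the other end stood VhaM9.7-c with 34.04 ± 1.29, Vha100-1 with 25.2 ± 1.93 and Vha68-1 with 3.23 ± 0.482 CPM per kilobase.

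**Figure D3:**
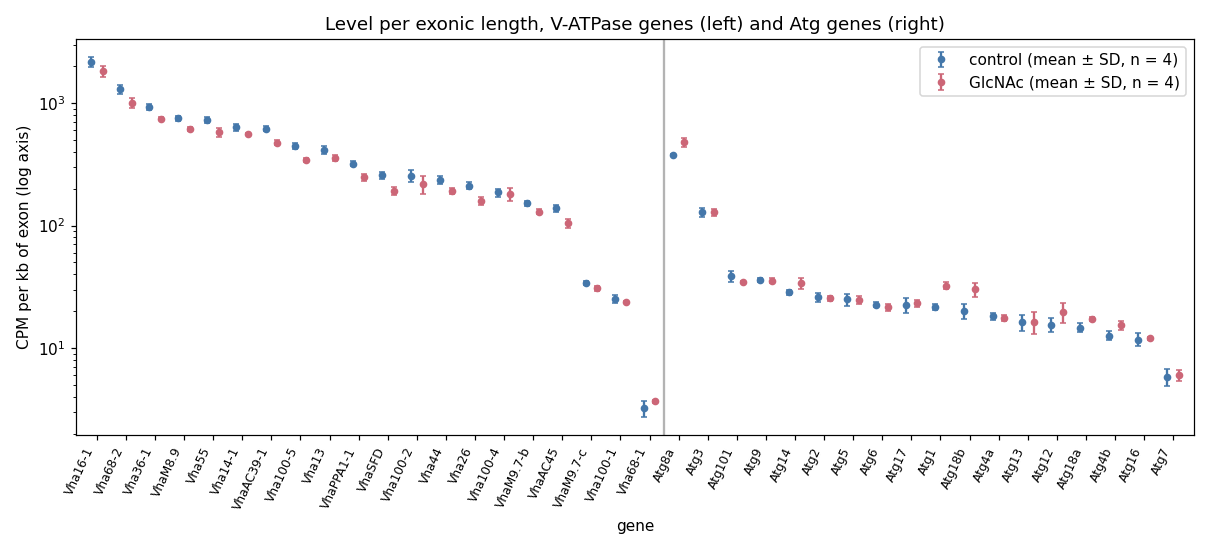
Mean level of each gene in CPM per kilobase of exon on a log axis, with the SD over 4 libraries, for control (blue) and GlcNAc (red). V-ATPase genes are on the left and Atg genes on the right, each ordered by the control level. Most V-ATPase genes lie above 100 CPM per kilobase, while Atg8a and Atg3 are the only Atg genes that do.

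The F-type ATP synthase of mitochondria is the nearest relative of the V-ATPase and runs in the opposite sense, making ATP from a proton gradient. Of its 12 nuclear genes 10 were in the table, and 8 fell and 0 rose by limma, beside 6.60% of all genes and 15.0% of those with at least 100 CPM that fell, with a median log2 fold change of -0.29 beside -0.29 for the V-ATPase. The 2 that did not pass were rare, near the authors' filter of 1 CPM. ATPsynbeta had means of 2.26 CPM in control and 2.53 CPM in GlcNAc, and ATPsynG of 2.34 and 1.45 CPM. The alpha subunit gene blw fell from 2124 ± 149.7 to 1626 ± 54.6 CPM (SD, n = 4, adjusted p = 0.00925 by limma). In the acid-producing copper cell region, the 3 marker genes lab, dve and Ptx1 were all measured and none passed the threshold. Their sum was 249.8 to 293 CPM in control and 249.8 to 305 CPM in GlcNAc. Lab itself, the homeobox gene that specifies copper cells, had 27.6 ± 3.13 CPM in control and 27.2 ± 4.79 CPM in GlcNAc (SD, n = 4, adjusted p = 0.916 by limma). Of the 9 measured markers of Malpighian tubules, the water channel gene Drip fell from 43.6 ± 4.52 to 30.03 ± 0.632 CPM and the aquaglyceroporin gene Eglp4 from 95.4 ± 22.3 to 64.01 ± 5.71 CPM (SD, n = 4, adjusted p = 0.00165 and 0.0272 by limma). The other 7 did not pass the threshold, and among them Irk2, Oatp58Da and Oatp58Dc had log2 fold changes above 0, at 0.50, 0.14 and 0.72. Of the 9, 6 were below 0, where 47.2% of all genes were. Of 12 visceral muscle markers 11 were measured, 10 of them with a log2 fold change below 0 (median -0.17), with sums of 1210.3 to 1691 CPM in control and 1054 to 1450.0 CPM in GlcNAc. The muscle actin gene Act57B fell from 220.2 ± 23.99 to 143 ± 23.9 CPM (SD, n = 4, adjusted p = 0.00812 by limma). It was the only 1 of the 11 past the threshold, beside 6.60% of all genes that fell. The other 10 did not pass it, and among them Tm1 had a log2 fold change of 0.01. Of 10 enteroendocrine markers 9 were measured, with a median log2 fold change of 0.33 and sums of 274 to 343 CPM in control and 323 to 366 CPM in GlcNAc. The hormone genes AstA, CCHa2 and Dh31 rose by 0.41, 0.46 and 0.52 on the log2 scale (adjusted p = 0.0470, 0.0153 and 0.0482 by limma), beside 8.75% of all genes that rose. Dh31 overlapped between conditions. The other 6 did not pass the threshold, and AstC, the only 1 below 0, had a log2 fold change of -0.15. The part of these organs and cells in the lower V-ATPase level was not tested.

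Atg genes went another way. Of the 18, 4 rose with an adjusted p under 0.05 by limma and 0 fell, where 8.75% of all genes rose and 6.60% fell. At an unadjusted p under 0.05 by limma 6 were higher and 0 were lower, and limma's voom called 5 higher and 0 lower after adjustment. The median log2 fold change of the 18 was 0.04 beside 0.01 for all genes, so that most Atg genes lay near the middle of the table. For 5 of the 18 the GlcNAc libraries all lay above the highest control library, where this was so for 11.2% of all genes. With an adjusted p under 0.01, 2 of the 18 rose, and the share of all genes at that threshold was not counted. The 4 genes that rose were Atg1, Atg18b, Atg8a and Atg18a.

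**Figure D4:**
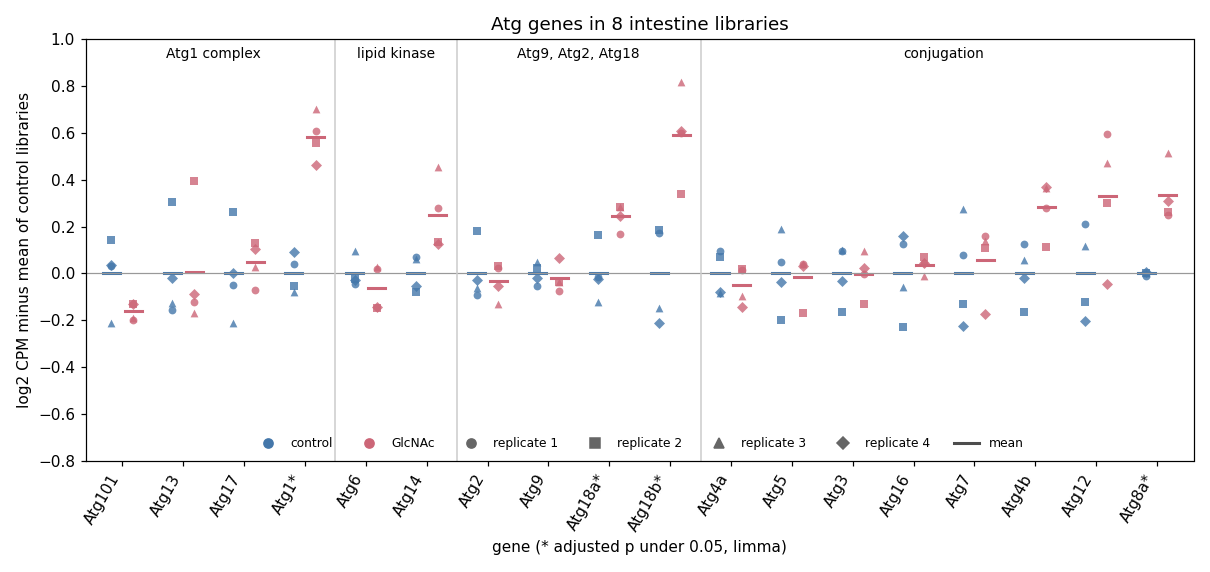
The 18 Atg genes in each of the 8 libraries, as log2 CPM minus the mean of the 4 control libraries of that gene, grouped by role. Blue points are control and red points GlcNAc libraries, the marker shape gives the replicate, bars are means, and an asterisk marks the 4 genes with an adjusted p under 0.05. Atg1, Atg18a, Atg18b and Atg8a have all their red points above all blue points, whereas in 13 genes the colours overlap.

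Atg1 encodes the kinase that starts autophagosome formation and is itself held in check by TOR. The gene lies on chromosome 3L from 12784429 to 12805116 of BDGP6, on the minus strand. It had 91.8, 86.1, 84.6 and 95.2 CPM in control replicates 1 to 4 and 136, 131, 145 and 123 CPM in GlcNAc replicates 1 to 4. The lowest GlcNAc library stood well above the highest control. The mean of Atg1 rose by 49.7%, from 89.4 ± 4.94 to 134 ± 9.20 CPM (SD, n = 4), and the log2 fold change was 0.58 ± 0.07 (SE, adjusted p = 0.000386 by limma). Leaving out single libraries kept its log2 fold change between 0.54 and 0.62.

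The partners of Atg1 in its complex gave no such difference. Atg13, the regulatory subunit, had 48.7 ± 7.48 CPM in control and 49.1 ± 9.66 CPM in GlcNAc (SD, n = 4), for a log2 fold change of 0.00 (95% interval -0.30 to 0.31, adjusted p = 0.989 by limma). Atg17, the fly scaffold homologous to mammalian FIP200, had 142 ± 19.7 and 146 ± 9.04 CPM (SD, n = 4), which gave a log2 fold change of 0.05 (-0.16 to 0.26, adjusted p = 0.808). Atg101, which binds Atg13, had 71.8 ± 7.18 and 63.9 ± 1.61 CPM (SD, n = 4), which gave a log2 fold change of -0.16 (-0.33 to 0.01, adjusted p = 0.206). Without control replicate 3, its lowest control library, Atg101 passed the threshold as lower, at -0.23 (adjusted p = 0.0398).

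Of the lipid kinase complex, Atg14 and Atg6 were measured. Atg14, which directs the complex to autophagy, had 55.7, 50.2, 55.4 and 51.2 CPM in control and 64.3, 58.1, 72.7 and 57.9 CPM in GlcNAc. The conditions did not overlap, yet the log2 fold change of 0.25 (95% interval 0.06 to 0.43) missed the threshold (adjusted p = 0.0754 by limma). It passed with library totals, at 0.0412. Atg6, the fly Beclin, had 33.6 ± 1.56 CPM in control and 32.2 ± 2.20 CPM in GlcNAc (SD, n = 4, adjusted p = 0.648). The kinase subunits Pi3K59F and Vps15, which carry no Atg name, had adjusted p-values of 0.576 and 0.835 by limma.

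Atg18 proteins bind the lipid that this kinase makes, and both fly genes rose. Atg18b, on chromosome 2L from 21212322 to 21220572 of BDGP6, had 54.5, 55.0, 43.6 and 41.7 CPM in control and 73.2, 61.2, 85.0 and 73.6 CPM in GlcNAc. Atg18a, on chromosome 3L from 8186857 to 8191118, had 42.2, 47.8, 39.2 and 42.0 CPM in control and 48.0, 52.0, 51.9 and 50.6 CPM in GlcNAc. The lowest GlcNAc library of Atg18b, at 61.2 CPM, exceeded its highest control, at 55.0 CPM, by less than the SD within either condition (7.01 and 9.75 CPM). For Atg18a the margin was narrower, with 48.0 against 47.8 CPM. Atg18b had a log2 fold change of 0.59 ± 0.12 (SE, adjusted p = 0.00849 by limma) and Atg18a of 0.25 (standard error 0.07, adjusted p = 0.0469).

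The call of Atg18a was lost with median centring (adjusted p = 0.0748 by limma), without the trend (0.0738) and when any library but control replicate 2 was left out, with up to 0.115. The ratio of Atg18a to Atg18b was 0.887 ± 0.0948 in control and 0.701 ± 0.104 in GlcNAc (SD, n = 4), lower in 3 of 4 GlcNAc libraries than in any control (exact p = 0.0571, 0.1 adjusted over the 7 ratios). Atg9, the membrane scramblase of the pathway, had 102 ± 3.28 and 101 ± 4.29 CPM, and Atg2, the lipid transfer protein, had 163 ± 14.3 and 159 ± 8.34 CPM (SD, n = 4). Their log2 fold changes were -0.02 (95% interval -0.14 to 0.10) and -0.03 (-0.19 to 0.13).

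Atg8a, the ubiquitin-like protein that coats autophagosomes and recruits cargo, was the Atg gene with the highest level per kilobase, at 378 ± 1.94 CPM per kilobase in control and 478 ± 42.4 in GlcNAc (SD, n = 4). It lies on chromosome X from 10764878 to 10768338 of BDGP6, on the minus strand. It had 636, 641, 642 and 644 CPM in control and 762, 768, 916 and 795 CPM in GlcNAc. The control libraries lay close together and every GlcNAc library was above them, with replicate 3 the highest. The log2 fold change was 0.33 ± 0.07 (SE, adjusted p = 0.011 by limma), and between 0.27 and 0.36 with each library left out.

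The enzymes that attach Atg8a to lipid did not move with it past the threshold. Atg7, the activating enzyme, had 13.9 ± 2.17 and 14.4 ± 1.48 CPM, and Atg3, the conjugating enzyme, had 157 ± 13.3 and 157 ± 10.1 CPM (SD, n = 4). Atg5 and Atg16, which with Atg12 form the ligase, had log2 fold changes of -0.01 (95% interval -0.22 to 0.19) and 0.04 (-0.17 to 0.24). Atg12 had 7.30 ± 0.984 and 9.24 ± 1.69 CPM (SD, n = 4), which gave a log2 fold change of 0.33 (-0.02 to 0.68, adjusted p = 0.213 by limma), from 59 to 106 reads per library.

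The Atg4 proteases prepare Atg8a for conjugation and release it again. Atg4b had 36.5, 29.9, 34.8 and 33.1 CPM in control and 40.7, 36.2, 43.1 and 43.2 CPM in GlcNAc, with only GlcNAc replicate 2 below a control library. Its log2 fold change of 0.28 (95% interval 0.09 to 0.47) stood at the threshold (adjusted p = 0.0517 by limma) and passed it in several settings, among them without GlcNAc replicate 2 (0.025). Atg4a had 74.3 ± 4.90 and 71.7 ± 3.95 CPM (SD, n = 4, adjusted p = 0.692). The ratio of Atg4b to Atg4a was 0.454 ± 0.0484 in control and 0.572 ± 0.0734 in GlcNAc (SD, n = 4), higher in 3 of 4 (exact p = 0.0571, 0.1 adjusted over the 7 ratios). The exons of Atg4a overlap those of CG4629 on the opposite strand over 2098 bases, and the reads were counted by strand.

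**Figure D5:**
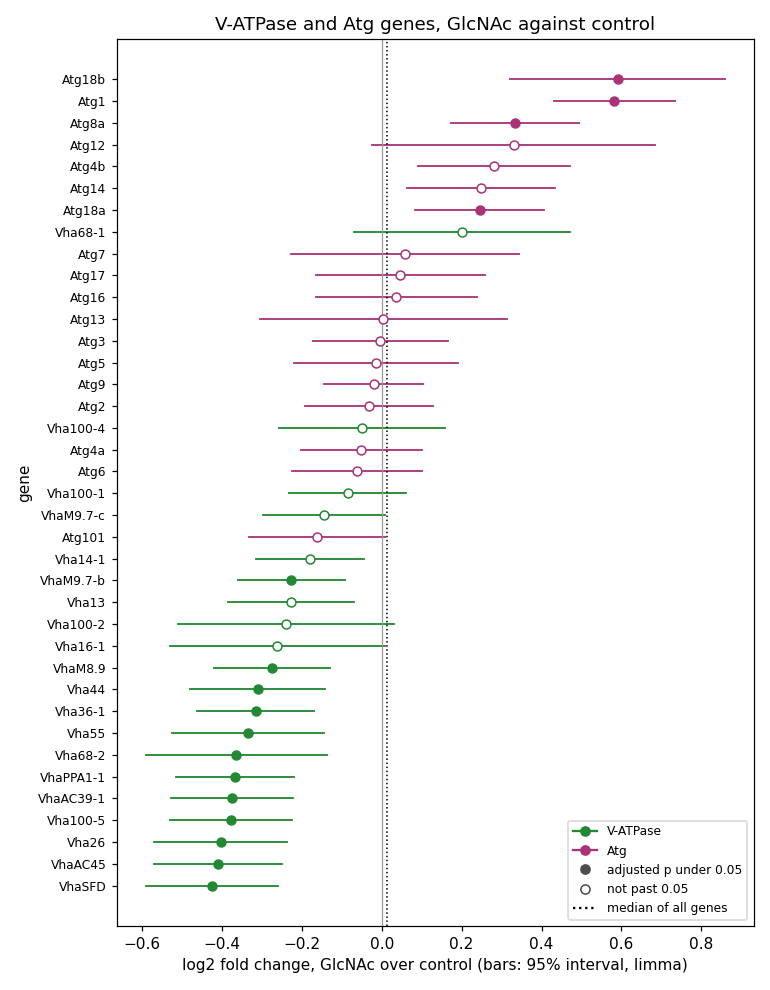
Log2 fold change of each of the 38 genes, GlcNAc over control, with its 95% interval from limma, for V-ATPase (green) and Atg genes (purple). Filled points have an adjusted p under 0.05, and the dotted line marks the median of all 7671 genes at 0.01. The 12 filled V-ATPase points lie between -0.43 and -0.23 and the 4 filled Atg points between 0.25 and 0.59.

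Further genes of autophagy carry no Atg name. Of 21 such genes, all of which were in the table, 1 rose and 0 fell by limma, beside 8.75% and 6.60% of all genes, with a median log2 fold change of 0.02. The gene that rose was bchs, for a large adaptor homologous to mammalian ALFY, at 51.6 ± 8.08 CPM in control and 65.7 ± 4.701 CPM in GlcNAc (SD, n = 4, log2 fold change 0.36, adjusted p = 0.0469 by limma), although control replicate 2 at 62.1 CPM lay above GlcNAc replicate 3 at 61.3 CPM. Ref(2)P, the fly p62 and a cargo receptor of autophagy, had 1524, 1153, 1462 and 1278 CPM in control and 1420.0, 1213, 1582 and 1484 CPM in GlcNAc. These overlapped, with a log2 fold change of 0.08 (95% interval -0.18 to 0.33, adjusted p = 0.73).

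Lysosomal hydrolases, which depend on the acid made by the V-ATPase, and lysosomal membrane proteins were listed together. Of 30 such genes 26 were in the table, and 4 rose and 3 fell by limma, beside 8.75% and 6.60% of all genes, with a median log2 fold change of 0.04. The glucocerebrosidase gene Gba1a rose from 122 ± 8.96 to 218 ± 20.4 CPM (SD, n = 4, log2 fold change 0.83, adjusted p = 0.000137 by limma). Its paralog Gba1b had 0.351 ± 0.0498 and 2.30 ± 1.31 CPM (SD, n = 4, adjusted p = 0.00393). Every control library of Gba1b, at 0.279 to 0.391 CPM, lay below the authors' filter of 1 CPM. The gene was kept only through its GlcNAc libraries, so its place among the 4 is tied to that filter. The sterol carrier gene Npc2a rose from 64.04 ± 5.80 to 113 ± 24.2 CPM (SD, n = 4, adjusted p = 0.00499), and the hexosaminidase gene Hexo2 had a log2 fold change of 0.75 (adjusted p = 0.0318). The genes that fell were CG12163, a cathepsin, Ppt1, a thioesterase, and LManI, a mannosidase.

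Among genes by which TOR, the energy sensor AMPK and the transcription factor Mitf control autophagy, 20 of 21 were in the table, and 4 rose and 3 fell by limma, beside 8.75% and 6.60% of all genes, with a median log2 fold change of -0.08. Thor, for the translation inhibitor 4E-BP, which TOR inactivates, had 367, 365, 244 and 324 CPM in control and 831, 601, 631 and 619 CPM in GlcNAc, and the log2 fold change was 1.05 ± 0.14 (SE, adjusted p = 0.00101 by limma). REPTOR, a transcription factor that acts when TOR is low, had a log2 fold change of 0.42 (adjusted p = 0.00546). The AMPK subunit gene alc fell by 0.42 on the log2 scale (adjusted p = 0.0125) and the small GTPase gene RagA-B rose by 0.36 (adjusted p = 0.0119). Iml1, for a GATOR1 subunit that restrains TOR, rose by 0.34 (adjusted p = 0.0183). Rheb, for the GTPase that activates TOR, and foxo, for a transcription factor of the insulin pathway, fell by 0.24 and 0.33 on the log2 scale (adjusted p = 0.0247 and 0.0328 by limma), and foxo overlapped between conditions. Mitf, the fly member of the family that drives V-ATPase and lysosomal genes, had 49.97 ± 3.21 CPM in control and 46.2 ± 2.32 CPM in GlcNAc (SD, n = 4), for a log2 fold change of -0.11 (95% interval -0.27 to 0.04, adjusted p = 0.339).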

How the data were processed

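Reads from 4 control and 4 GlcNAc samples were trimmed with Trimmomatic, mapped with TopHat 2.1.0 to the FlyBase genome and counted by strand on exons with HTSeq, as the study's methods and the submitters' processing notes give. Genes were kept by the authors if 3 or more of the 4 replicates of a condition exceeded 1 CPM. The authors deposited log2 CPM values, scaled between libraries, with an offset of 0.5 read, which understates changes of rare genes. Deposited beside them are log2 fold changes of the authors, t and F statistics (a score with no fixed range) and p-values, which were not used. From the steps of the low values the reads behind them were recovered, and 100% of 61368 values were whole within 0.01 read.

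The conditions were compared over the log2 CPM of all 7671 genes by limma 3.58.1 under R 4.3.3 (eBayes with a trend, condition as the only term), with Benjamini-Hochberg adjustment over all genes and a threshold of 0.05. Paralog ratios were compared by exact permutation over 70 assignments. Gene positions and exon lengths came from the BDGP6 annotation, in which 36 genes matched by identifier and 2 by symbol. Values are given in every library for genes that passed among the 8 largest changes of each group, for the leading gene of each subunit, for Atg1 and Atg8a, and for paralogs whose calls differ, and other values were added where groups nearly separated. The members and gene lists were chosen with earlier results of these data known. Alternatives were a block by replicate number, a filter of 10 CPM, library totals, quantile normalization, median centring, voom on the recovered reads, no trend, pseudocounts of 0.1 and 2 CPM, a threshold of 0.01 and each library left out. The fit was tested on simulated data.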

Additional observations from a re-analysis of the deposited data

Results flagged for a closer look

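Of 76 groups of 4 libraries (38 genes in 2 conditions), 5 held a library far from the other 3 by Dixon's test, where chance gives about 1 in 20 groups. Atg13 had 63.5 CPM in GlcNAc replicate 2, while the other GlcNAc libraries had 42.95 to 45.4 CPM. Atg5 had 31.3 CPM in GlcNAc replicate 2, below the others at 36.02 to 36.3 CPM. Atg6 had 35.9 CPM in control replicate 3, above the others at 32.5 to 33.05 CPM. Atg7 had 12.2 CPM in GlcNAc replicate 4, below the others at 14.9 to 15.4 CPM. Vha100-5 had 1407 CPM in control replicate 2, above the others at 1265 to 1285 CPM, and it still fell when that library was left out (adjusted p = 0.0107 to 0.0202 by limma over the 8 settings with a library left out).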

How the results depend on the processing

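In all 18 alternatives at the threshold of 0.05, 7 of the 12 V-ATPase genes that fell (Vha100-5, Vha26, Vha36-1, VhaAC39-1, VhaAC45, VhaPPA1-1 and VhaSFD) and 3 of the 4 Atg genes that rose (Atg1, Atg18b and Atg8a) kept their call, with adjusted p-values of up to 0.0327 and 0.0329 by limma. When single libraries were left out, the number of V-ATPase genes that fell ran from 7, without GlcNAc replicate 1 or 4, to 13, with 0 that rose. Of all genes, 402 fell without GlcNAc replicate 1, 360 without GlcNAc replicate 4 and 455 without control replicate 3, the setting with 13. The number of Atg genes that rose ran from 3 to 4, and of those that fell from 0 to 1, which was Atg101 without control replicate 3. A threshold of 0.01 left 7 V-ATPase genes and 2 Atg genes, without a count over all genes to set beside them. The median log2 fold change of Atg genes was 0.10 with library totals, where the median of all genes was 0.07, and 0.0017 without replicate 2 of both conditions, an alternative added after the data had been seen. That of V-ATPase genes stayed between -0.34 and -0.25 with a library left out. The causes of these shifts were not tested. Samples with the same replicate number were not shown to pair, since the correlation of their deviations from the condition means over all genes was 0.21, 0.40, 0.15 and -0.06 for numbers 1 to 4. With the replicate number as a block 11 V-ATPase genes fell, without VhaM9.7-b (adjusted p = 0.0558 by limma), and 6 Atg genes rose, with Atg14 (0.0332) and Atg4b (0.0274) added. For the paralog ratios a paired test cannot give a p below 0.125, and no p was computed with a library left out. Over the genes singly, 630 values under alternatives stayed on their side of the threshold, 37 lost a call and 15 gained one.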
